A study of Mus musculus with 3 samples.

Results

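Endothelium-rich spots are the places in 3 spatial transcriptome sections of mouse embryos where the RNA of vessel-lining cells made up the largest share of the captured molecules. Within each section, spots with at least 1000 unique molecular identifiers (UMIs, each standing for 1 captured RNA molecule) were ranked by the summed UMIs of 5 endothelial genes, Cdh5, Pecam1, Kdr, Emcn and Cldn5, as a share of all UMIs of the spot. The top 6% of each section were taken, 237 of 3935 spots in all. They were 94 of 1561 spots of the E11.5 section (E stands for embryonic day), 61 of 1014 of the E12.5 section and 82 of 1360 of the E13.5 section. The remaining 1467, 953 and 1278 spots of the same sections are called other spots. Because the spots were chosen by those 5 genes, the levels of the 5 genes are a description and not a result.

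The study placed cryosections of the embryonic axial skeleton, the tissue of the future vertebrae and discs, on 10x Genomics Visium arrays, which capture polyA RNA on a grid of barcoded spots. Each stage is 1 section, and strain, sex and the number of embryos are not stated in the labels. A spot is 55 µm across, the centres lie 100 µm apart and the sections were 10 µm thick, so a spot can hold several cells of different types or parts of them. Fewer endothelial cells in a spot and less RNA per endothelial cell cannot be told apart in such data.

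Endothelial cells line blood and lymph vessels. In the mid-gestation embryo a plexus of simple tubes is remodelled into arteries, veins and capillaries under vascular endothelial growth factor (VEGF), angiopoietin and Notch signals. Pericytes and smooth muscle cells settle on the tubes, and both cell types lay down a shared basement membrane. Vessels that enter the neural tube take on transporters and junctions of the blood-brain and blood-spinal cord barrier. Cartilage stays free of vessels while it forms, whereas the perineural and perichondral tissue around it is vascularised.

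Endothelium-rich spots held a median of 29128.5, 26481 and 19081 UMIs over the 3 stages, and other spots a median of 26790.0, 24241 and 21198.5. The 5 scoring genes together had a median of 769, 826 and 948 counts per 1000000 UMIs (CPM) in endothelium-rich spots, against 108, 137 and 165 CPM in other spots. The last spot inside and the first outside the threshold had 576.357 and 576.356 CPM in the E11.5 section, 659.9 and 654 CPM in the E12.5 section, and 758 and 753 CPM in the E13.5 section, so the edge of the set cuts through a continuum. When each scoring gene was left out in turn and the spots were chosen by the other 4, the left-out gene was 3.37 to 5.86 times as high in the chosen spots as in the rest. The tissue is labelled bone, but the bone matrix gene Ibsp was at 0, 0 and 30.9 CPM in endothelium-rich spots and at 0.0241, 0.0418 and 26.1 CPM in other spots, near 0 at the first 2 stages. The sections also held regions led by spinal cord, heart, skeletal muscle, lung and skin genes. Between the sections 434 (E11.5 and E12.5), 704 (E11.5 and E13.5) and 696 (E12.5 and E13.5) spot barcodes recur, since a barcode names a grid position of the array.

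For the comparison with other spots, UMIs were summed per section over endothelium-rich and over other spots. The sums held 2872803, 1548905 and 1552177 UMIs for endothelium-rich spots and 41485807, 23941839 and 27198137 UMIs for other spots. In endothelium-rich spots 1 UMI is worth 0.348, 0.646 and 0.644 CPM. edgeR's quasi-likelihood test with the section as a block and Benjamini-Hochberg adjustment was fitted to the 6 sums across 15488 genes besides the scoring genes. It called 732 genes higher and 731 lower in endothelium-rich spots at an adjusted p under 0.05, which are 4.73% and 4.72% of the genes tested. The yardstick of these p-values is how much the ratio varied between 3 sections of 3 different stages, and no stage has a second section. Gene lists are described by their counts and their median beside the median of all genes, which was -0.05 on the log2 scale. Sets of 3 values run from E11.5 to E13.5, and adjusted p-values are edgeR's unless another tool is named.

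Of 30 further pan-endothelial genes, 28 rose and 0 fell in endothelium-rich spots, against 4.73% of all genes higher, with a median log2 fold change of 1.85. All 30 had the higher level in endothelium-rich spots in each of the 3 sections, as did 3181 of all 15488 genes tested. Together they stood at 2501, 2398 and 2900.4 CPM in endothelium-rich spots, against 687, 624 and 869.9 CPM in other spots. Per spot the summed level ran over 684, 2354 and 5040 CPM (lowest, median and highest) in endothelium-rich spots of the E11.5 section, over 278, 2269 and 4871 CPM in those of the E12.5 section, and over 0, 2616 and 7428 CPM in those of the E13.5 section. It lay above the median of other spots in 94 of 94, 59 of 61 and 79 of 82 endothelium-rich spots, where that median was 532, 481 and 732 CPM. The name of the spots thus holds for nearly all of them, although single spots at the 2 later stages have few endothelial UMIs.

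The angiopoietin receptors and the VEGF receptor Flt1 gave steady ratios. Tie1, an orphan receptor that modulates angiopoietin signalling, had 149, 132 and 157 CPM in endothelium-rich spots, against 32.7, 24.5 and 35.4 CPM in other spots (log2 fold change 2.24, adjusted p = 1.97e-07, SD of the section log2 ratio 0.15). Tek, the angiopoietin receptor Tie2, had 86.7, 63.3 and 103 CPM in endothelium-rich spots, against 22.0, 13.2 and 28.7 CPM in other spots (log2 fold change 2.001, adjusted p = 1.10e-06). Flt1, which binds VEGF and limits its action, had 50.8, 39.4 and 56.7 CPM in endothelium-rich spots, against 11.7, 9.48 and 12.54 CPM in other spots (log2 fold change 2.11, adjusted p = 2.07e-06, SD 0.06). For each of the 3 receptors the 3 endothelium-rich values lie above the 3 values of other spots without overlap. The looser condition of a higher level in each of the 3 sections held for 3181 of all 15488 genes tested.

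Genes of the blood-facing surface and of cell contacts were among the highest folds of the list. Vwf, the clotting protein stored in endothelial granules, had 87.0, 51.0 and 90.2 CPM in endothelium-rich spots, against 17.5, 8.6 and 10.9 CPM in other spots (log2 fold change 2.62, adjusted p = 4.64e-07). Nos3, the endothelial nitric oxide synthase, had 48.0, 34.9 and 50.9 CPM in endothelium-rich spots, against 9.62, 8.06 and 9.74 CPM in other spots (log2 fold change 2.27, adjusted p = 2.08e-06). Esam, an adhesion molecule of endothelial junctions, had 149, 124 and 154 CPM in endothelium-rich spots, against 29.3, 24.3 and 39.0 CPM in other spots (log2 fold change 2.22, adjusted p = 4.27e-07). The groups do not overlap for any of these, and the Vwf ratio was largest at E13.5. Ptprb, a phosphatase that restrains Tek, had 23.7, 30.3 and 59.9 CPM in endothelium-rich spots, against 7.81, 5.81 and 9.08 CPM in other spots. Its log2 fold change was 2.22 (adjusted p = 4.07e-05). The secreted Egfl7, which lies in the vessel matrix, had 336, 385 and 505 CPM in endothelium-rich spots, against 103, 104 and 154 CPM in other spots (log2 fold change 1.76, adjusted p = 4.27e-07).

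Transcription factors of the endothelial programme varied in fold. Erg, an ETS factor that maintains endothelial identity, had 24.0, 17.4 and 27.7 CPM in endothelium-rich spots, against 6.2, 9.73 and 15.7 CPM in other spots (log2 fold change 1.24, adjusted p = 0.00795). Its call is lost without the E11.5 section (0.80, adjusted p = 0.0534). Its relative Fli1, which blood cells also use, had 28.2, 52.9 and 32.2 CPM in endothelium-rich spots, against 17.1, 28.8 and 15.8 CPM in other spots (log2 fold change 0.86, adjusted p = 0.0019). Sox7 and Sox18, SOX factors of vessel formation, rose by 2.10 and 1.91 on the log2 scale (adjusted p = 1.32e-05 and 5.46e-05). Tal1 and the receptor Gpr182 did not pass. Tal1, a factor shared by blood and endothelial precursors, had 40.0, 9.04 and 17.4 CPM in endothelium-rich spots, against 31.3, 7.64 and 4.08 CPM in other spots (log2 fold change 0.77, adjusted p = 0.119). Gpr182 had 3.83, 5.17 and 13.53 CPM in endothelium-rich spots, against 3.4, 0.877 and 3.71 CPM in other spots (log2 fold change 1.36, adjusted p = 0.0763).

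**Figure D1:**
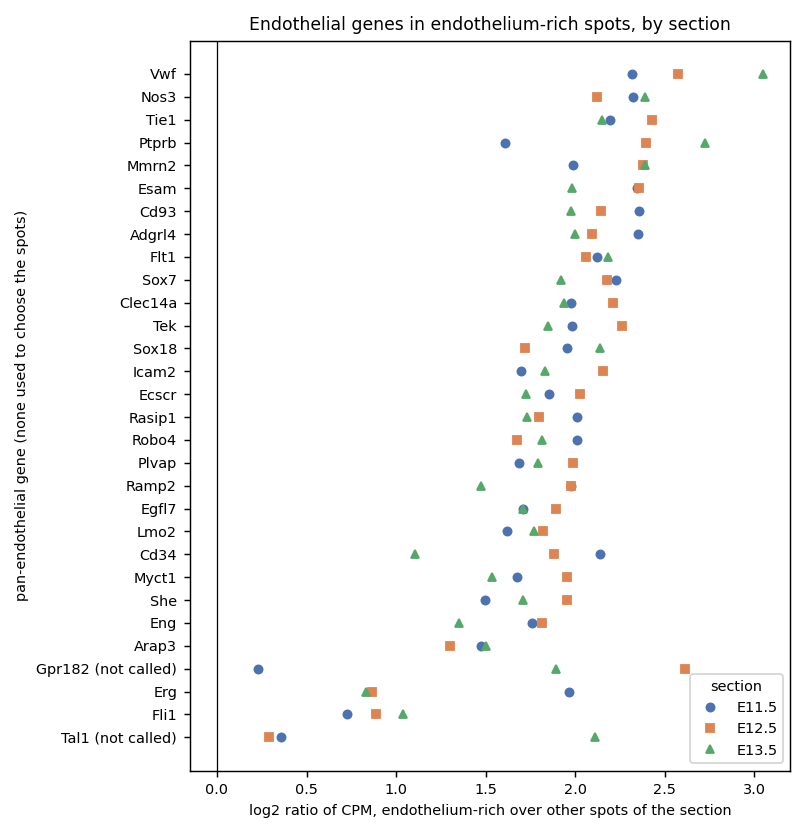
Log2 ratio of the level in endothelium-rich spots to that in other spots of the same section (x axis, pseudocount of 0.5 UMI) for each of 30 pan-endothelial genes (y axis), with 1 point per section. All points lie right of 0; Vwf reaches the highest mean ratio and Tal1 and Gpr182 are marked as not called.

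The promoters of the 3 pan-endothelial genes with the highest folds among those that the promoter table holds are shown, since the genes of the list moved together. Each sequence runs 5′ to 3′ on the gene's strand from 250 bases before to 50 after the start, from RefSeq on GRCm38.p6. Tie1 lies on the minus strand (chr4:118489800-118490099), Adgrl4, an adhesion receptor of endothelial cells, on the plus strand (chr3:151437632-151437931) and Flt1 on the minus strand (chr5:147725962-147726261). Capitals mark AGGAAG, the core letters that ETS factors such as Erg and Fli1 prefer, or CTTCCT where the match is on the opposite strand.
Tie1: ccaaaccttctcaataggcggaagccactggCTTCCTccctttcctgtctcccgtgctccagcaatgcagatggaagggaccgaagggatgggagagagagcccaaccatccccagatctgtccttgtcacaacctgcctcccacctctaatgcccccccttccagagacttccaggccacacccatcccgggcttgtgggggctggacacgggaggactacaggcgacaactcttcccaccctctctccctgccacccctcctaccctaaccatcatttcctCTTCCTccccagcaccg
Adgrl4: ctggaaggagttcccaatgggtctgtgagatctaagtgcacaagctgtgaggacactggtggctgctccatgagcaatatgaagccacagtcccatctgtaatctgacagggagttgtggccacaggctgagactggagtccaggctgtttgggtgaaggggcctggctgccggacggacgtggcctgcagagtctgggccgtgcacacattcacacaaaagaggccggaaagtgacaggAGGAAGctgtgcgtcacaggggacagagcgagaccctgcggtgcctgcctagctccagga
Flt1: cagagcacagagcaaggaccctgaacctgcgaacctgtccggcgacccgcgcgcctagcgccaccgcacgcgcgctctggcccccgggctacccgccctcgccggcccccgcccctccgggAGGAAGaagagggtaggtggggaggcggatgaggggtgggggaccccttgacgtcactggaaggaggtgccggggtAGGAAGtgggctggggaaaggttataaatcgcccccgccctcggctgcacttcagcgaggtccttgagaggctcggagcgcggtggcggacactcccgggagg
Tie1 and Flt1 have 2 matches each and Adgrl4 has 1. The table holds 14 of the 30 genes, and 9 of the 14 have AGGAAG on either strand, against 35.1% of all 27025 promoters of the table. The other ETS-type letters searched, CCGGAAG, went the other way, with 0 of the 14 against 9.12% of all promoters. With 14 of 30 genes matched, the check of shares is void. The letters are a description and not a binding site.

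Arterial genes rose in endothelium-rich spots: 13 of 16 passed as higher and 0 as lower, with a median log2 fold change of 1.29. Together they stood at 631, 547 and 731 CPM in endothelium-rich spots, against 264, 233 and 242 CPM in other spots. Gja4, the connexin 37 of arterial endothelium, had 108, 66.5 and 78.6 CPM in endothelium-rich spots, against 17.9, 10.6 and 15.6 CPM in other spots (log2 fold change 2.52, adjusted p = 3.09e-07, SD 0.17), the highest fold of the list. Epas1, the hypoxia-responsive factor HIF-2α that endothelium expresses in normal oxygen too, had 97.1, 86.5 and 138 CPM in endothelium-rich spots, against 18.1, 18.8 and 23.2 CPM in other spots (log2 fold change 2.40, adjusted p = 1.23e-07). Both are several times higher in every section.

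Sox17, a SOX factor needed for arterial fate, had 27.5, 35.5 and 29.6 CPM in endothelium-rich spots, against 5.93, 8.27 and 7.06 CPM in other spots (log2 fold change 2.13, adjusted p = 1.32e-05). Dll4, the Notch ligand of arteries and sprouts, had 25.8, 21.3 and 26.4 CPM in endothelium-rich spots, against 6.77, 5.64 and 9.04 CPM in other spots (log2 fold change 1.79, adjusted p = 1.30e-04). Gja5, connexin 40, had 23.0, 16.1 and 37.4 CPM in endothelium-rich spots, against 5.16, 6.93 and 17.5 CPM in other spots (log2 fold change 1.499, adjusted p = 0.0018), and its other-spot level at E13.5 exceeds the endothelium-rich level at E12.5. Unc5b, a netrin receptor, and Bmx, a kinase of arterial endothelium, passed with 1.03 and 1.83 on the log2 scale (adjusted p = 0.008 and 0.0454). Both lost their calls without the E12.5 section (0.80, adjusted p = 0.0767 for Unc5b and 1.75, adjusted p = 0.194 for Bmx). Bmx lost its call also without E13.5 (1.46, adjusted p = 0.143) and with DESeq2 (1.90, adjusted p = 0.0597). Efnb2, the ephrin that marks arteries but is also widespread in mesenchyme, had 46.0, 50.4 and 50.9 CPM in endothelium-rich spots, against 37.2, 43.3 and 30.3 CPM in other spots and did not pass (adjusted p = 0.0579). Cxcr4 and Nrp1, receptors with many other sources in the embryo, did not pass either (log2 fold change 0.71 and 0.93, adjusted p = 0.121 and 0.108).

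Of 5 venous genes, 4 rose and 0 fell. Aplnr, the apelin receptor of veins and venous progenitors, had 183, 143 and 209 CPM in endothelium-rich spots, against 34.6, 36.0 and 52.0 CPM in other spots (log2 fold change 2.14, adjusted p = 4.27e-07). Nr2f2, the COUP-TFII factor that sets venous identity and is also made by much mesenchyme, had 135, 142 and 166 CPM in endothelium-rich spots, against 95.2, 124 and 70.0 CPM in other spots (log2 fold change 0.64, adjusted p = 0.0133). Its other-spot value at E12.5 comes close to the endothelium-rich value at E11.5. Ephb4, the venous receptor of Efnb2, had a log2 fold change of 0.46 (adjusted p = 0.012), which is lost without E11.5 (0.41, adjusted p = 0.0657) or without E12.5 (0.44, adjusted p = 0.103). Nrp2, a co-receptor of VEGF-C, did not pass (log2 fold change 0.36, adjusted p = 0.209).

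The lymphatic genes did not move as 1 group. Of 7, 2 rose and 1 fell. Mmrn1, a protein of lymphatic and other vessels, had 41.1, 43.9 and 58.6 CPM in endothelium-rich spots, against 8.17, 9.11 and 12.46 CPM in other spots (log2 fold change 2.27, adjusted p = 1.77e-06, SD 0.05). Flt4, the VEGF-C receptor that embryonic blood vessels also carry, had 26.1, 36.8 and 27.1 CPM in endothelium-rich spots, against 8.53, 10.2 and 9.6 CPM in other spots (log2 fold change 1.65, adjusted p = 1.02e-04). The defining lymphatic factor Prox1 had 2.44, 7.1 and 7.09 CPM in endothelium-rich spots, against 8.34, 9.44 and 9.08 CPM in other spots (log2 fold change -0.83, adjusted p = 0.14). Lyve1, a hyaluronan receptor of lymphatic endothelium and some macrophages, had 1.74, 10.3 and 23.2 CPM in endothelium-rich spots, against 1.76, 4.55 and 17.1 CPM in other spots (log2 fold change 0.56, adjusted p = 0.286). Neither passed. Pdpn, podoplanin, which mesothelium and other tissues also make, fell, with 12.53, 21.9 and 27.7 CPM in endothelium-rich spots, against 27.7, 32.5 and 43.9 CPM in other spots (log2 fold change -0.81, adjusted p = 0.00672).

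Among VEGF and angiopoietin genes, 9 of 14 rose and 1 fell, with the receptors already named among those that rose. Of the ligands, Vegfa, the main endothelial growth factor, had 26.8, 25.8 and 39.9 CPM in endothelium-rich spots, against 27.4, 33.5 and 33.2 CPM in other spots (log2 fold change -0.04, adjusted p = 0.928), so that its ranges overlap fully. Vegfc, the ligand of Flt4, had 21.6, 23.9 and 24.5 CPM in endothelium-rich spots, against 9.52, 10.4 and 8.24 CPM in other spots (log2 fold change 1.30, adjusted p = 7.59e-04). Vegfd had 6.61, 14.2 and 63.1 CPM in endothelium-rich spots, against 3.57, 9.27 and 30.6 CPM in other spots (log2 fold change 0.86, adjusted p = 0.0105), and without E13.5 it does not pass (0.80, adjusted p = 0.0764). Angpt1, the activating ligand of Tek that perivascular cells secrete, had 24.0, 41.3 and 30.9 CPM in endothelium-rich spots, against 14.6, 20.4 and 13.1 CPM in other spots (log2 fold change 0.98, adjusted p = 0.00208). Angpt2, its sprout-derived antagonist, had 5.92, 4.52 and 32.2 CPM in endothelium-rich spots, against 3.86, 2.13 and 9.56 CPM in other spots (log2 fold change 1.23, adjusted p = 0.0177), and its call is lost without E13.5 (0.82, adjusted p = 0.212). Vegfb, a ligand of Flt1, fell, with 55.0, 73.0 and 66.4 CPM in endothelium-rich spots, against 83.3, 92.1 and 79.2 CPM in other spots (log2 fold change -0.41, adjusted p = 0.0243). This call is lost without E11.5 (-0.31, adjusted p = 0.29), without E12.5 (-0.46, adjusted p = 0.0851) and with DESeq2 (-0.39, adjusted p = 0.157).

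Tip-cell genes, which mark the leading cells of sprouts, gave 4 higher and 0 lower of 10. Pdgfb, with which endothelium recruits pericytes, had 36.9, 40.7 and 48.3 CPM in endothelium-rich spots, against 8.24, 9.69 and 18.1 CPM in other spots (log2 fold change 1.87, adjusted p = 5.91e-05). Mcam, CD146 of endothelium and pericytes, had 45.2, 56.2 and 148 CPM in endothelium-rich spots, against 20.2, 23.6 and 52.5 CPM in other spots (log2 fold change 1.30, adjusted p = 1.02e-05). Apln, the ligand of Aplnr, had 7.31, 14.8 and 35.4 CPM in endothelium-rich spots, against 5.04, 7.77 and 14.3 CPM in other spots (log2 fold change 0.96, adjusted p = 0.0148). Its call is lost without E12.5 (0.95, adjusted p = 0.0771) or E13.5 (0.79, adjusted p = 0.0718). Esm1, a frequent tip-cell marker, was scarce and at 0 in endothelium-rich spots at E12.5 (log2 fold change 0.15, adjusted p = 0.939).

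Of 15 Notch genes 9 rose and 0 fell, against 4.73% of all genes higher. Among the 9, Notch1, Notch4, Dll4, Jag1, Hey1 and Hey2 are also in the arterial list and Heyl in the mural list. The count is therefore not separate from those of these lists. Notch4, the endothelial receptor, rose by 1.49 and Notch1 by 0.69 on the log2 scale (adjusted p = 1.90e-04 and 0.00164). Jag1, a ligand on endothelial and mural cells, had 28.5, 36.8 and 60.6 CPM in endothelium-rich spots, against 19.8, 18.0 and 21.5 CPM in other spots (log2 fold change 1.01, adjusted p = 0.00265). The target Heyl, which mural cells express, had 86.3, 43.9 and 58.0 CPM in endothelium-rich spots, against 22.5, 16.5 and 20.9 CPM in other spots (log2 fold change 1.64, adjusted p = 1.80e-05). Dll1, Dll3 and Hes5, which belong to neural progenitors and somites, had log2 fold changes of -1.08, -0.41 and -1.07 and did not pass (adjusted p = 0.109, 0.319 and 0.0654). The Nrarp call (log2 fold change 0.78, adjusted p = 0.0429) is lost without E12.5 (0.80, adjusted p = 0.163), without E13.5 (0.49, adjusted p = 0.058) and with DESeq2 (0.83, adjusted p = 0.052). The Jag2 call (log2 fold change 0.72, adjusted p = 0.0473) is lost without E11.5 (0.39, adjusted p = 0.518) and with DESeq2 (0.70, adjusted p = 0.131).

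Several pericyte genes rose, while genes of contractile smooth muscle did not. Of 16 tested, 7 rose and 1 fell, with a median of 0.68, and the list stood at 837, 723 and 1371 CPM in endothelium-rich spots, against 413, 462 and 991 CPM in other spots. Pdgfrb, the pericyte receptor of Pdgfb, had 124, 94.9 and 128 CPM in endothelium-rich spots, against 52.1, 48.6 and 59.0 CPM in other spots (log2 fold change 1.11, adjusted p = 1.96e-05). Rgs5, a regulator of G-protein signals in pericytes, had 34.8, 67.1 and 146 CPM in endothelium-rich spots, against 15.9, 14.9 and 27.5 CPM in other spots (log2 fold change 1.92, adjusted p = 5.48e-05). Foxs1, a forkhead factor of perivascular cells, had 11.1, 5.17 and 19.3 CPM in endothelium-rich spots, against 1.81, 1.04 and 3.86 CPM in other spots (log2 fold change 2.42, adjusted p = 3.41e-04), with few UMIs behind it. Kcnj8 and Abcc9, the 2 parts of a pericyte potassium channel, rose by 1.68 and 1.505 on the log2 scale (adjusted p = 7.13e-04 and 0.0015). Cspg4, the NG2 proteoglycan, and the peptidase Anpep, both used as pericyte markers, did not pass (log2 fold change 0.11 and 0.84, adjusted p = 0.681 and 0.0549).

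Acta2, the actin of contractile cells, had 80.4, 117 and 389.8 CPM in endothelium-rich spots, against 94.9, 166 and 449.7 CPM in other spots (log2 fold change -0.32, adjusted p = 0.0531). Tagln, which binds that actin, and Myh11, smooth muscle myosin, did not pass either (log2 fold change -0.03 and 0.45, adjusted p = 0.954 and 0.298). Cnn1, calponin, fell, with 8.7, 0 and 14.8 CPM in endothelium-rich spots, against 31.5, 0.877 and 26.7 CPM in other spots (log2 fold change -1.44, adjusted p = 0.00415). This call is lost without E11.5 (-1.02, adjusted p = 0.126). Vtn, vitronectin, an adhesive protein that pericytes of the nervous system make, had 297, 133 and 46.4 CPM in endothelium-rich spots, against 43.2, 40.9 and 9.23 CPM in other spots (log2 fold change 2.31, adjusted p = 5.92e-06). Its level was lowest at the last stage in both kinds of spot.

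Basement membrane genes had the highest summed level of the vascular lists. They stood at 3935, 3946 and 5572 CPM in endothelium-rich spots, against 1398, 1687 and 3903 CPM in other spots, and 10 of 12 rose and 0 fell, with a median of 0.87. Col4a1, a chain of collagen IV, had 1152, 842 and 866 CPM in endothelium-rich spots, against 245, 248 and 432 CPM in other spots (log2 fold change 1.67, adjusted p = 1.72e-04). Col18a1, from which endostatin is cut, had 562, 554 and 515 CPM in endothelium-rich spots, against 201, 158 and 210.5 CPM in other spots (log2 fold change 1.52, adjusted p = 6.50e-06). Nid1 and Lama4, a linker and a laminin chain of vessels, rose by 1.14 and 0.84 on the log2 scale (adjusted p = 0.00149 and 0.00234). The ratio of Col4a1 was largest at E11.5 and smallest at E13.5, where other spots had more of it. Nid2 and Lama5 did not pass (0.64 and -0.42, adjusted p = 0.0559 and 0.368). Without the E12.5 section 3 calls are lost, Lamb1 (0.65, adjusted p = 0.148), Hspg2 (0.60, adjusted p = 0.091) and Sparc (0.49, adjusted p = 0.125), and without E11.5 that of Sparc (0.45, adjusted p = 0.207).

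Genes of the brain-type barrier were higher for 5 of 10 and lower for 0. Slc2a1, the glucose transporter of barrier endothelium and of red cell precursors, had 275, 178 and 59.9 CPM in endothelium-rich spots, against 92.7, 74.2 and 47.2 CPM in other spots (log2 fold change 1.14, adjusted p = 0.00208, SD 0.63). Its endothelium-rich value at E13.5 lies below the values of other spots at both earlier stages. Abcb1a, the drug efflux pump P-glycoprotein, had 9.75, 6.46 and 3.87 CPM in endothelium-rich spots, against 0.651, 0.752 and 0.993 CPM in other spots (log2 fold change 3.13, adjusted p = 0.00134). That is the highest fold of all genes that met the naming rule, from 44 UMIs in endothelium-rich spots. Foxq1, a forkhead factor of brain vessels, had 13.9, 9.68 and 0.644 CPM in endothelium-rich spots, against 3.54, 2.67 and 0.441 CPM in other spots (log2 fold change 1.85, adjusted p = 0.00582), where the E13.5 value is 1 UMI. Its call is lost without E11.5 (1.68, adjusted p = 0.116) or E12.5 (1.81, adjusted p = 0.0635). So is that of the organic anion transporter Slco1c1 (log2 fold change 2.002, adjusted p = 0.0167), which had 1.82, adjusted p = 0.261 without E11.5 and 2.16, adjusted p = 0.0659 without E12.5. The junction gene Lsr (log2 fold change 0.74, adjusted p = 0.0225) likewise loses its call without E11.5 (0.67, adjusted p = 0.177) or E12.5 (0.84, adjusted p = 0.0505). Mfsd2a, the lipid transporter of the mature barrier, did not pass (log2 fold change -0.22, adjusted p = 0.753). Neuron genes mark the tissue that such vessels enter, and 7 of 8 fell in endothelium-rich spots. Summed they stood at 978, 662 and 447 CPM in endothelium-rich spots, against 1839, 1928 and 430.1 CPM in other spots, and their part in the barrier values was not tested.

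**Figure D2:**
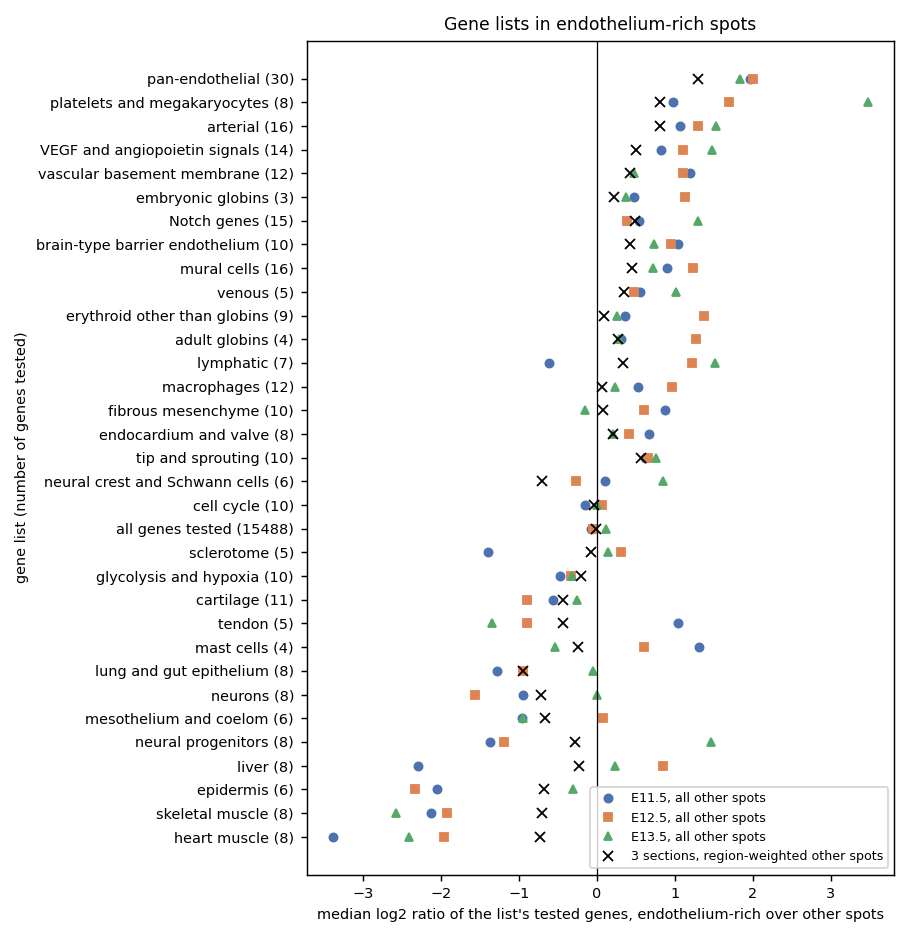
Median log2 ratio of endothelium-rich to other spots per gene list (y axis: list; x axis: log2 ratio), with 1 point per section and a cross for the median against other spots weighted by region. The pan-endothelial medians lie near 2 in all 3 sections, the heart and skeletal muscle medians far below 0, and the neural progenitor and lymphatic medians have opposite signs at E11.5 and E13.5.

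Most globins were higher in endothelium-rich spots. Embryonic globins stood at 56216, 16299 and 409.7 CPM in endothelium-rich spots, against 40256, 7560.1 and 345 CPM in other spots, and 3 of 3 passed. Adult globins stood at 15721, 12495 and 9078 CPM in endothelium-rich spots, against 12930.2, 5467 and 7356 CPM in other spots, and 2 of 4 passed. Of 9 other erythroid genes 2 passed, Alas2 and Slc4a1 (log2 fold change 0.67 and 0.76, adjusted p = 0.0348 and 0.0249). All of these calls are lost without the E12.5 section. The embryonic globins Hba-x, Hbb-bh1 and Hbb-y then had log2 fold changes of 0.47, 0.45 and 0.30 (adjusted p = 0.17, 0.28 and 0.535). The adult globins Hba-a1 and Hba-a2 had 0.30 and 0.27 (adjusted p = 0.414 and 0.459), and Alas2 and Slc4a1 had 0.45 and 0.41 (adjusted p = 0.212 and 0.21). Without E11.5 the calls of Hbb-y (0.64, adjusted p = 0.157), Hba-a1 (0.69, adjusted p = 0.0505) and Alas2 (0.76, adjusted p = 0.136) are also lost. With globin UMIs left out of all sums, 762 genes were higher and 779 lower.

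Platelet and white cell genes were measured beside them. The platelet chemokine Ppbp had 34.1, 7.1 and 3.87 CPM in endothelium-rich spots, against 11.8, 3.13 and 0.735 CPM in other spots (log2 fold change 1.57, adjusted p = 0.00266). It was the 1 of 8 platelet genes that passed, and its call is lost without E11.5 (1.62, adjusted p = 0.0857). The platelet list stood at 83.5, 34.2 and 30.3 CPM in endothelium-rich spots, against 39.9, 19.7 and 10.4 CPM in other spots. Macrophage genes were at 569.8, 578 and 896 CPM in endothelium-rich spots, against 284, 277 and 725 CPM in other spots, and 4 of 12 rose. Pf4, made by platelets and by some macrophages, had 332, 153 and 168 CPM in endothelium-rich spots, against 116, 59.4 and 99.9 CPM in other spots (log2 fold change 1.22, adjusted p = 2.27e-04). Mrc1, the mannose receptor, had 19.8, 33.6 and 54.8 CPM in endothelium-rich spots, against 7.69, 15.9 and 36.7 CPM in other spots (log2 fold change 0.96, adjusted p = 0.00611). Lyz2 and Fcer1g also rose (0.68 and 0.58, adjusted p = 0.0113 and 0.023) and lose their calls without E12.5 (0.48, adjusted p = 0.093 for Lyz2 and 0.41, adjusted p = 0.204 for Fcer1g). The defining macrophage receptor Csf1r did not pass (log2 fold change 0.47, adjusted p = 0.185).

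Granule genes of neutrophils, chosen after their values were seen because Ngp met the naming rule, were also higher. S100a8 had 46.6, 68.4 and 49.0 CPM in endothelium-rich spots, against 8.68, 24.6 and 19.2 CPM in other spots (log2 fold change 1.76, adjusted p = 1.61e-04). Its partner S100a9 had 53.3, 54.9 and 61.9 CPM in endothelium-rich spots, against 9.04, 26.0 and 18.6 CPM in other spots (log2 fold change 1.80, adjusted p = 2.89e-04). Ngp had 5.92, 4.52 and 11.6 CPM in endothelium-rich spots, against 0.386, 2.005 and 1.29 CPM in other spots (log2 fold change 2.78, adjusted p = 0.00432). Camp had 3.48, 21.9 and 16.8 CPM in endothelium-rich spots, against 0.868, 4.84 and 2.57 CPM in other spots (log2 fold change 2.31, adjusted p = 4.09e-04). For both, the endothelium-rich level is above that of other spots in each section, and only for Camp do the ranges overlap. The Ngp fold is 3.47, adjusted p = 0.00162 without E12.5 and 2.11, adjusted p = 0.0787 when the top 3% of spots are taken. Other spots were also weighted by region, that is, groups of spots with like expression counted as much as they do among endothelium-rich spots. Against these the folds were smaller, at 0.52 for S100a8 (adjusted p = 0.0311), 0.76 for S100a9 (0.0264) and 1.15 for Camp (0.00811). S100a9 was then lower in endothelium-rich than in weighted other spots at E12.5 (54.9 CPM in endothelium-rich spots, against 61.5 CPM), and Ngp had too few UMIs for the fit.

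Heart and skeletal muscle genes had the lowest median folds of the lists against all other spots. All 8 heart muscle genes were called lower, with a median of -2.84. Their summed levels were 270.1, 141 and 821 CPM in endothelium-rich spots, against 2463, 597 and 4094 CPM in other spots. In all 3 sections 5 of the 8 were lower, as were 2872 of all 15488 genes tested. At E12.5 Myl7, Myl2 and Nppa were near 0 in both kinds of spot (1.55, 0.961 and 0.292 CPM in other spots). Actc1, at 365 CPM in other spots of that section, is there a leading gene of the Myod1 and Myog region. All 8 skeletal muscle genes fell, with a median of -2.46 and summed levels of 20.5, 221 and 1216 CPM in endothelium-rich spots, against 138, 910.0 and 5698 CPM in other spots. Against other spots weighted by region the medians were -0.72 for heart and -0.70 for skeletal muscle, with 6 of 7 and 5 of 7 genes lower, and the lung and gut epithelial list was lowest at -0.95. Nppa, the atrial natriuretic peptide, fell by 4.19 and the troponin Tnnt2 by 2.96 on the log2 scale (adjusted p = 1.49e-06 and 1.77e-06), and the muscle troponin Tnnc2 fell by 2.69 (adjusted p = 2.76e-07). The lowest fold by the naming rule was that of Pax7, the factor of muscle precursors and dorsal neural tube, which had 0 UMIs in endothelium-rich spots and 849 in other spots. That is at least 18.2-fold lower when 3 UMIs over the 3 sections are allowed. The muscle genes Tmem182 and Musk, also at 0 UMIs, were at least 5.63 and 3.29 times lower on the same basis. Gpr22, at 0 UMIs too, was at least 4.56 times lower. Myl2 and Myl7, myosin light chains of the heart, fell by 3.56 and 2.51 on the log2 scale, and their calls are lost with DESeq2 (-2.11, adjusted p = 0.362 for Myl2 and -1.57, adjusted p = 0.563 for Myl7). Myf5, a factor of muscle precursors, loses its call with DESeq2 (-2.89, adjusted p = 0.0593) and without E13.5 (-2.004, adjusted p = 0.178).

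Cartilage and nerve genes fell by less. Of 11 cartilage genes 6 fell and 0 rose, and the list stood at 533, 1267 and 3759 CPM in endothelium-rich spots, against 751, 2250.3 and 5065 CPM in other spots. Col2a1, the main cartilage collagen, had 310.5, 712 and 1806 CPM in endothelium-rich spots, against 472, 1280.0 and 2646 CPM in other spots (log2 fold change -0.67, adjusted p = 7.40e-04). Without E12.5 the calls of Acan, Col9a2 (-0.51, adjusted p = 0.0688), Col11a2 (-0.47, adjusted p = 0.116) and Matn4 (-0.59, adjusted p = 0.0534) are lost. Of 8 neuron genes 7 fell. Tubb3, the neuronal tubulin, had 292, 171 and 79.2 CPM in endothelium-rich spots, against 505, 504 and 77.8 CPM in other spots (log2 fold change -0.83, adjusted p = 0.0174). Its levels at E13.5 are close, and the call is lost without E12.5 (-0.45, adjusted p = 0.179). Schwann cell genes gave 0 calls of 6 either way at 74.8, 106 and 142 CPM in endothelium-rich spots, against 68.3, 110.3 and 93.9 CPM in other spots. Epidermal genes fell for 5 of 6, and liver and lung or gut epithelial genes for 4 of 8 each. The liver list stood at 201, 22.6 and 101 CPM in endothelium-rich spots, against 811, 11.9 and 95.6 CPM in other spots, and 4 of its genes were at 0 UMIs in endothelium-rich spots at E12.5.

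Genes of fibrous mesenchyme stood at 3163, 4621 and 12072 CPM in endothelium-rich spots, against 1559.5, 3100.5 and 13444 CPM in other spots, with 2 of 10 genes higher. They were Lum, a collagen-binding proteoglycan (log2 fold change 1.05, adjusted p = 0.0094), and the fibrillin Fbn1 (log2 fold change 0.42, adjusted p = 0.0178). The call of Lum is lost with DESeq2 (1.06, adjusted p = 0.192), and that of Fbn1 with DESeq2 (0.44, adjusted p = 0.0533), without E11.5 (0.38, adjusted p = 0.122) and without E12.5 (0.37, adjusted p = 0.17). Cell cycle genes gave 0 of 10 calls either way. Mki67, present in dividing cells, had a log2 fold change of 0.10 (adjusted p = 0.601). Of 10 genes of glycolysis and hypoxia, Slc2a1 was the 1 that rose and 5 fell. Ldha, the lactate dehydrogenase, and Pgk1, a kinase of glycolysis, were among those 5 (log2 fold change -0.50 and -0.54, adjusted p = 0.00753 and 0.0037). Both lose their calls without E11.5 (-0.38, adjusted p = 0.228 for Ldha and -0.42, adjusted p = 0.0761 for Pgk1).

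Endothelium-rich spots were not spread evenly. Spots were grouped by expression within each section into regions, without use of the 5 scoring genes, and a region is called here by its leading genes. At E11.5, 61 of the 127 spots of the Lamc3, Vtn and Cacng4 region were endothelium-rich, which were 64.9% of all endothelium-rich spots of that section, and 11 of 67 in the region led by S100a9 and Nes. In contrast 0 of 62 spots of the Slc18a3 and Lhx3 region, where motor neuron genes lead, 0 of 90 of the Matn4, Col9a3 and Pax1 region and 0 of 32 of the Tnnc2 and Myog region were endothelium-rich. At E12.5, 29 of 99 spots of the Ifitm1 and Pltp region and 9 of 49 of the region led by Gm42418, Cldn11 and Lars2 were.

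At E13.5 the spots were more scattered. The Ibsp and Col8a1 region gave 22 of 143, and the Nkx2-1 and Sftpc region, where lung genes lead, 13 of 102. The Egfl8 and Sox10 region, where Schwann cell genes lead, gave 12 of 48, and the Actg2 and Myh11 region, where smooth muscle genes lead, 11 of 87. The cartilage gene regions led by Fmod and Ucma and the muscle gene region led by Myot and Myh8 gave 0 of 80 and 0 of 164. In the Comp and Matn1 region 7 of 138 were endothelium-rich, all 7 with under 5000 UMIs and 15885 UMIs in all, so that the score there rests on few molecules.

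**Figure D3:**
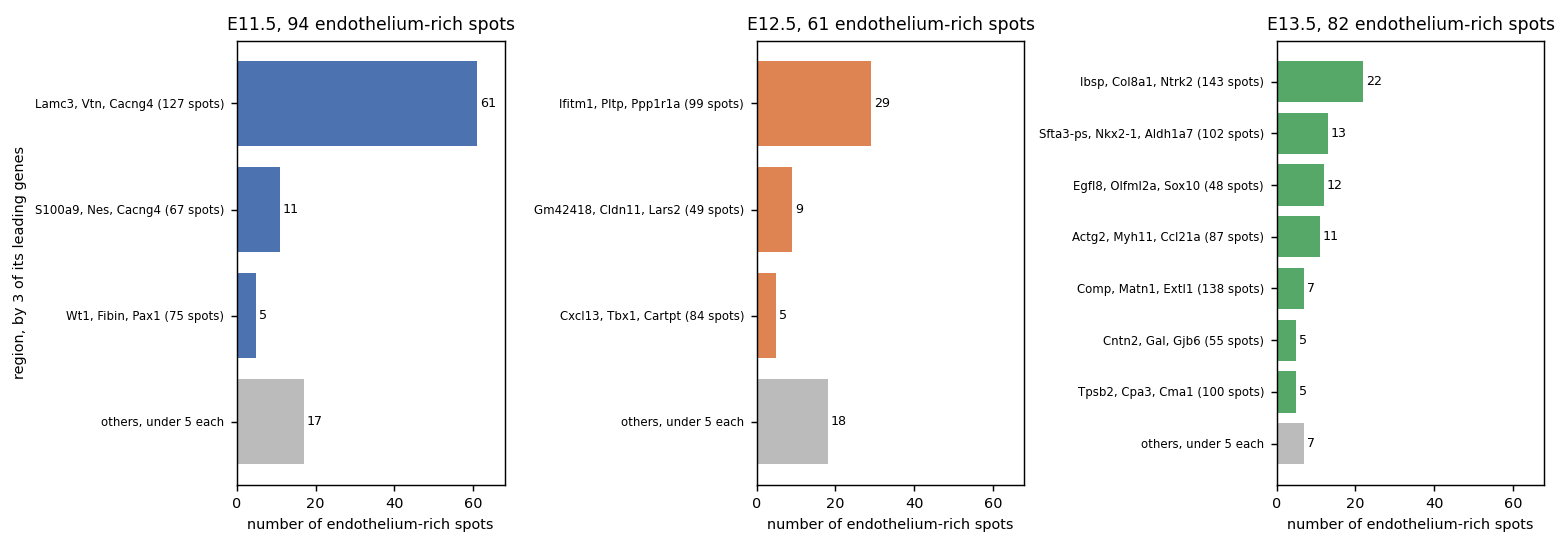
Number of endothelium-rich spots (bars, x axis) in each region with at least 5 of them, named by 3 of its leading genes (y axis), and in all other regions together (grey), with 1 panel per section. At E11.5 the Lamc3, Vtn and Cacng4 region holds 61 of 94 spots; at E13.5 the highest bar is 22 of 82.

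Because the regions differ in much more than vessels, endothelium-rich spots were also compared with other spots weighted so that each region counted as much as it does among endothelium-rich spots. edgeR's quasi-likelihood test on these rounded weighted sums called 472 genes higher and 311 lower of 11714, or 4.03% and 2.65%. Of these calls 408 of the higher and 221 of the lower genes were shared with the unweighted calls. Pan-endothelial genes kept their direction: 27 of 29 were called higher, with a median log2 fold change of 1.30. Arterial genes were higher for 11 of 15 (median 0.81), mural genes for 8 of 16 (median 0.45) and basement membrane genes for 10 of 12 (median 0.42). Abcb1a (2.28, adjusted p = 9.96e-04), Vwf (2.09, 3.27e-10), Gja4 (1.93, 9.09e-11), Epas1 (1.55, 3.66e-09) and Tie1 (1.46, 3.18e-10) were again higher than in the weighted other spots. The pericyte gene Rgs5 also passed, at 1.40 (adjusted p = 6.59e-07), with weighted other spots at 18.9, 28.9 and 40.7 CPM.

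With the weighting some folds were smaller and several calls were lost. Lamc3, a laminin chain, had 108, 55.5 and 12.2 CPM in endothelium-rich spots, against 13.1, 7.31 and 2.57 CPM in other spots (log2 fold change 2.88, adjusted p = 1.22e-06). Its log2 fold change was 0.70 against weighted other spots at 74.8, 19.9 and 5.01 CPM (adjusted p = 0.00117). Col4a1 and Vtn, at 0.85 and 0.94, stayed called (adjusted p = 1.23e-09 and 7.52e-06). Lamc3, Vtn, Pltp and Col4a1 themselves helped to define a region, so the weighting draws on them. Of the named and listed genes 45 lost their calls with the weighting. Among vessel genes these included Fli1 (0.47, adjusted p = 0.0806), Hey2 (0.20, 0.732), Nr2f2 (0.20, 0.219), Pdpn (-0.46, 0.0987), Angpt1 (0.35, 0.228), Angpt2 (0.57, 0.228), Vegfb (-0.19, 0.369), Vegfd (0.44, 0.16), Lsr (0.43, 0.176) and Foxq1 (0.80, 0.106). Calls were also lost for the contractile gene Cnn1 (-0.69, 0.175), the macrophage genes Fcer1g (0.12, 0.695) and Mrc1 (0.16, 0.704), the erythroid genes Alas2 and Slc4a1, the cartilage gene Acan, and for Ifitm1, Sned1, Slc6a13 and Slc40a1. Of the 7 globins 1 remained called, Hba-x (0.33, 0.0152). Acta2, at -0.32 without the weighting, rose by 0.38 on the log2 scale (adjusted p = 0.0132). All 8 neuron genes were lower with the weighting.

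**Figure D4:**
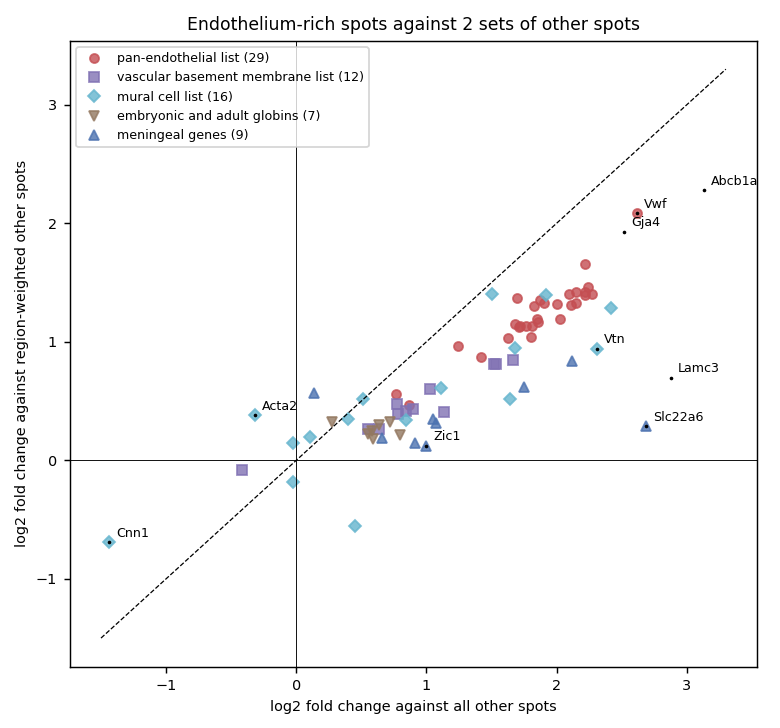
Log2 fold change of endothelium-rich spots against all other spots (x axis) and against other spots weighted by region (y axis) for pan-endothelial, basement membrane, mural, globin and meningeal genes, 1 point per gene, with the line of equality dashed. Most points lie below the line; Abcb1a, Vwf and Gja4 stay near or above 1.9 on both axes while Slc22a6 and Zic1 stand at 0.29 and 0.12 with the weighting.

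Of 10 genes of the membranes around the spinal cord 9 were higher in the unweighted comparison and Crym did not pass (log2 fold change 0.13, adjusted p = 0.731). This group was chosen after its values were seen, because Slc22a6 met the naming rule. Slc22a6, an organic anion transporter of meninges and kidney, had 27.1, 5.17 and 1.93 CPM in endothelium-rich spots, against 3.01, 1.04 and 0.772 CPM in other spots (log2 fold change 2.68, adjusted p = 0.00117), and its call is lost without E11.5 (1.92, adjusted p = 0.114). Foxc1, a forkhead factor of meningeal and other perivascular mesenchyme, had 165, 249 and 130.1 CPM in endothelium-rich spots, against 81.4, 121 and 56.3 CPM in other spots (log2 fold change 1.08, adjusted p = 1.02e-05). Pltp, a phospholipid transfer protein, had 199.5, 149.8 and 61.9 CPM in endothelium-rich spots, against 32.5, 35.4 and 23.1 CPM in other spots (log2 fold change 2.12, adjusted p = 1.82e-05). With the weighting by region Slc22a6 stood at 0.29 (adjusted p = 0.628), Foxc1 at 0.31 (0.00301), Zic1 at 0.12 (0.438) and Pltp at 0.84 (1.46e-07). Their part in the folds of the vessel genes was not tested beyond this weighting.

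The other genes that the naming rule gave as highest were Wfdc1, Tmem252, Car4 and Halr1. Wfdc1, a secreted protein of the whey acidic protein family, had 25.4, 5.17 and 8.38 CPM in endothelium-rich spots, against 2.89, 0.459 and 2.43 CPM in other spots (log2 fold change 2.75, adjusted p = 6.76e-04). With the weighting by region it did not pass (0.51, adjusted p = 0.259). Tmem252 rose by 2.53 on the log2 scale (adjusted p = 0.00128). Car4, a carbonic anhydrase on capillaries, and the transcript Halr1 rose by 2.37 and 2.37 (adjusted p = 0.00315 and 0.00582) and lost their calls without E11.5 (1.91, adjusted p = 0.105 for Car4 and 1.92, adjusted p = 0.19 for Halr1). Some endothelial genes outside the lists, chosen after their values were seen, were higher too. Edn1, the vasoconstrictor endothelin, and Procr, the protein C receptor, rose by 2.12 and 2.08 (adjusted p = 0.00159 and 2.31e-04). Sema3g, a semaphorin, and the adhesion receptor Adgrf5 rose by 2.10 and 1.93 (adjusted p = 6.17e-05 and 1.91e-05). Cxcl12, the chemokine ligand of Cxcr4 in stroma and vessel walls, had 253, 384 and 468 CPM in endothelium-rich spots, against 121, 208 and 169.7 CPM in other spots (log2 fold change 1.13, adjusted p = 2.25e-05).

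The levels of some vessel genes in endothelium-rich spots differed between regions. These are sums over the spots of 1 region in 1 section, with exact Poisson 95% intervals that cover counting error only. No test was made. The other spots of the same regions are not set beside them. A level of the vessels and a level of the whole region therefore cannot be told apart here. At E11.5 Slc2a1 was at 336 CPM (95% interval 310.1 to 363) in the 61 spots of the Lamc3 and Vtn region. It was at 262 CPM (95% interval 211 to 323) in the 11 of the S100a9 and Nes region and at 72.02 CPM (95% interval 36.0 to 129) in the 5 of the Wt1 and Fibin region. The first 2 values lie several times above the last. At E13.5 it was at 159 CPM (95% interval 96.0 to 249) in the 5 spots of the Cntn2 and Gal region, where sensory neuron genes lead. It was at 55.9 CPM in the 22 of the Ibsp region, 45.9 CPM in the 13 of the Nkx2-1 region and 44.7 CPM in the 11 of the Actg2 region. Vtn was at 453 CPM in the Cntn2 and Gal region and at 4.3, 0 and 4.47 CPM in the Ibsp, Nkx2-1 and Actg2 regions. It is itself among the leading genes of the Cntn2 and Gal region, so its high level there is a description and not a result.

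In the lung gene region of E13.5 the arterial connexin Gja4 had 0 UMIs among 196293 in 13 endothelium-rich spots, which allows up to 15.3 CPM when 3 UMIs are allowed. It was at 103 CPM in the Actg2 region and at 96.8 CPM in the Ibsp region. The same lung gene spots had 290.4 CPM of Aplnr and 40.8 CPM of Rgs5, where the Ibsp region had 206 CPM of Aplnr and 204 CPM of Rgs5. Mmrn1 was at 228 CPM (95% interval 169.8 to 299.8) in the Actg2 region, 91.7 CPM (95% interval 54.4 to 145) in the lung gene region and 12.9 CPM in the Ibsp region. Lyve1 was at 53.6 CPM in the Actg2 region, 50.9 CPM in the lung gene region and 2.15 CPM in the Ibsp region, and Vwf at 183, 20.4 and 79.6 CPM in the same order. Of these 3 regions the Ibsp region had the lowest Mmrn1 and Lyve1.

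Across stages, the levels in endothelium-rich spots were compared between E13.5 and E11.5 as ratios with exact conditional 95% intervals for counting error. There is 1 section per stage, so stage and section cannot be told apart and there is no test. Of 9326 genes with at least 50 UMIs over the 2 sums, 836 (8.96%) were at least 2 times as high at E13.5 and 269 (2.88%) at most 0.5 times as high. The pan-endothelial genes were nearly level: 1 of 29 was past the fold upwards, Ptprb, and 1 downwards, Tal1, with a median log2 ratio of 0.20, the same as that of all genes. Egfl7 had a ratio of 1.5 (95% interval 1.36 to 1.65) in endothelium-rich spots and 1.5 (1.44 to 1.57) in other spots. Gja4 had 0.728 (95% interval 0.586 to 0.901) in endothelium-rich spots and 0.867 (0.768 to 0.979) in other spots. Ptprb had 2.53 (95% interval 1.83 to 3.51) in endothelium-rich spots and 1.16 (0.981 to 1.38) in other spots.

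Several sprouting and mural genes stood higher at the later stage in both kinds of spot. The median log2 ratio of the tip-cell list was 1.55 in endothelium-rich spots and 1.34 in other spots, and that of the mural list was 1.12 in endothelium-rich spots and 1.09 in other spots. Of 6 tip-cell genes with enough UMIs, 4 were at least 2 times as high at E13.5 and 0 at most 0.5 times. Apln had a ratio of 4.85 (95% interval 2.88 to 8.44) in endothelium-rich spots and 2.85 (2.4 to 3.38) in other spots. Angpt2 had 5.44 (95% interval 3.09 to 10.1) in endothelium-rich spots and 2.48 (2.03 to 3.04) in other spots. Of 15 mural genes 9, among them the smooth muscle genes Acta2 and Myh11, were past the fold upwards and 1, Vtn, downwards. The pericyte receptor Pdgfrb was nearly level in endothelium-rich spots, at 124 CPM at E11.5 and 128 CPM at E13.5. Heyl was lower at E13.5 (58.0 CPM) than at E11.5 (86.3 CPM). Rgs5 had 4.2 (95% interval 3.31 to 5.37) in endothelium-rich spots and 1.73 (1.55 to 1.92) in other spots, and Mcam 3.27 (95% interval 2.63 to 4.09) in endothelium-rich spots and 2.6 (2.39 to 2.84) in other spots. The ratio was lower in endothelium-rich than in other spots for Kcnj8, with 2.18 (95% interval 1.63 to 2.92) in endothelium-rich spots and 4.84 (4.25 to 5.54) in other spots. The same order held for Anpep, Ndufa4l2 and Abcc9, with 2.52, 4.5 and 3.84 in endothelium-rich spots and 4.86, 6.16 and 4.41 in other spots. For Apln, Angpt2 and Mcam the ratio in other spots was above 2 as well. The intervals of the 2 kinds of spot overlap for Apln and Mcam and lie apart for Angpt2 and Rgs5, narrowly for Angpt2.

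Some barrier genes, and the pericyte gene Vtn, were lower at the later stage. Slc2a1 had a ratio of 0.218 (95% interval 0.174 to 0.27) in endothelium-rich spots and 0.509 (0.477 to 0.542) in other spots. Vtn had 0.156 (95% interval 0.121 to 0.199) in endothelium-rich spots and 0.214 (0.186 to 0.244) in other spots. Foxq1 had 0.0463 (95% interval 0.00114 to 0.273) in endothelium-rich spots, and 0.124 (0.0629 to 0.224) in other spots, from 40 UMIs at E11.5 and 1 at E13.5, under the minimum of 50. Of 6 barrier genes with enough UMIs 3, Slc2a1, Lef1 and Spock2, were at most 0.5 times as high and 1, Itm2a, at least 2 times. Itm2a had 3.94 (95% interval 3.61 to 4.3) in endothelium-rich spots and 8.63 (8.44 to 8.84) in other spots. The summed neuron genes were at 978, 662 and 447 CPM in endothelium-rich spots and 1839, 1928 and 430.1 CPM in other spots. The regions that hold the spots differ between the sections, so a change within vessels and a change of the tissue sampled cannot be told apart.

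**Figure D5:**
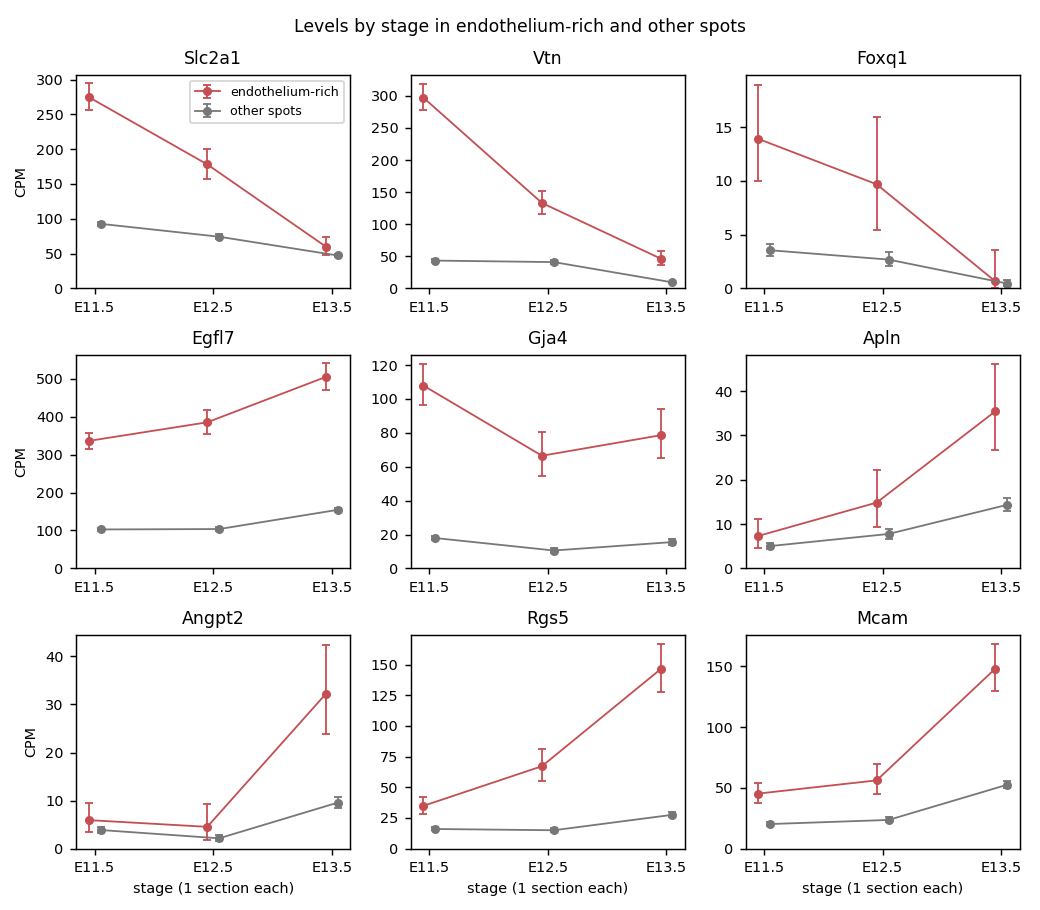
Level in CPM (y axis) at the 3 stages (x axis) of 9 vessel genes, 1 panel per gene, in endothelium-rich spots (red) and other spots (grey), with exact Poisson 95% intervals as bars. Slc2a1, Vtn and Foxq1 go down over the stages in endothelium-rich spots, Apln, Angpt2, Rgs5 and Mcam go up, and Egfl7 and Gja4 vary less.

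The naming rule for stages took the largest ratios in endothelium-rich spots that were at least 2 times those in other spots, with 0.5 UMI added to each sum. It gave Eln, the elastin of arterial walls. Eln had 33.8, 34.2 and 1019 CPM in endothelium-rich spots and 35.6, 25.0 and 383 CPM in other spots, and ratios of 30.2 (95% interval 24.6 to 37.5) in endothelium-rich spots and 10.8 (10.2 to 11.4) in other spots. Mgp, a calcification inhibitor of vessel walls and cartilage, had a ratio of 56.1 (95% interval 40.1 to 81.0) in endothelium-rich spots and 14.1 (13.4 to 14.8) in other spots. Aspn and Ecrg4 had 0 UMIs in endothelium-rich spots at E11.5 and were at least 114 and 61.7 times as high at E13.5, with 3 UMIs allowed at E11.5. Other spots had ratios of 346 (216 to 596) for Aspn and 58.0 (42.0 to 82.3) for Ecrg4, so for these genes a larger ratio in endothelium-rich spots rests on the added 0.5 UMI. Muscle genes (Myh3, Acta1, Myl1), the limb and trunk factor Hoxa10, the retinol dehydrogenase Adh1 and Prss35 met the same rule. In the other direction stood Nes, an intermediate filament of progenitors and young vessels, with 272, 149 and 75.4 CPM in endothelium-rich spots and 167, 125 and 151 CPM in other spots. The Wnt feedback genes Nkd1 and Nkd2 had ratios of 0.252 (95% interval 0.159 to 0.383) and 0.189 (95% interval 0.0878 to 0.362) in endothelium-rich spots, against 0.645 (0.586 to 0.711) and 0.626 (0.55 to 0.711) in other spots. Spock2, a matrix proteoglycan, had 0.274 (95% interval 0.154 to 0.457) in endothelium-rich spots and 0.824 (0.725 to 0.935) in other spots. Itga11, a collagen-binding integrin, had 0.231 (95% interval 0.119 to 0.413) in endothelium-rich spots and 1.7 (1.48 to 1.96) in other spots. Pltp, Cd83 and Tmem132c had 0.31, 0.343 and 0.221 in endothelium-rich spots and 0.711, 0.734 and 0.534 in other spots. Rhd, a red cell antigen gene, had 34.8, 8.39 and 0.644 CPM in endothelium-rich spots and 24.2, 2.34 and 2.02 CPM in other spots.

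The size of the enrichment itself also differed between sections for some genes. Among those called higher, the section log2 ratio was more positive at E13.5 than at E11.5 for Rgs5 (1.13, 2.18 and 2.41 from the earliest to the latest stage), Ptprb (1.61, 2.40 and 2.73), Hey1, Sox13, Ifitm1, Nrarp, Sned1 and Eln. The calls of Sned1 and Eln are lost without E13.5 (0.34, adjusted p = 0.148 for Sned1 and 0.19, adjusted p = 0.506 for Eln), without E12.5 (0.68, adjusted p = 0.183 and 0.74, adjusted p = 0.117) and with DESeq2 (0.65, adjusted p = 0.127 and 0.64, adjusted p = 0.0883). That of Ifitm1 is lost without E12.5 (0.81, adjusted p = 0.075). It was more positive at E11.5 for Bgn, Itih5, Lama2, Slc40a1, Slc6a13, Slco2b1 and Vwa1. Bgn, the proteoglycan biglycan, had 253, 216 and 559.9 CPM in endothelium-rich spots, against 73.5, 86.3 and 508 CPM in other spots (log2 fold change 1.06, adjusted p = 0.0167). Its call is lost without E12.5 (0.93, adjusted p = 0.107) and with DESeq2 (1.10, adjusted p = 0.265), and at E13.5 the 2 kinds of spot were close. Vwa1, a matrix protein, had 37.9, 32.3 and 23.8 CPM in endothelium-rich spots, against 9.04, 11.4 and 23.7 CPM in other spots (log2 fold change 1.26, adjusted p = 0.0253), and its call is lost without E12.5 (1.13, adjusted p = 0.132). These differences between sections have 1 section per stage and were not tested.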

How the data were processed

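The authors deposited, for each of 3 sections, a count matrix of unnormalized UMIs (genes by spots), which Space Ranger 1.2.0 wrote per the file headers. The submitters' processing notes name STAR and mm10. Which STAR version, which annotation release and which filter on spots were used is not given in the sources used here. The stage comes from each section's title. The matrices list 32285 genes, named by the files' symbols. Members and gene lists were chosen with earlier results of these data known, and the promoters come from RefSeq.

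Spots with at least 1000 UMIs were scored and the top 6% per section taken, ties going to the lower matrix column. UMIs were summed into 6 sums and fitted with edgeR 4.0.16 (filterByExpr, TMM, glmQLFit, glmQLFTest; limma 3.58.1, R 4.3.3) with the section as a block, because both sums of a section come from the same slice. Adjusted p-values are Benjamini-Hochberg over all genes fitted. For log2 ratios within a section 0.5 UMI was added to each sum. DESeq2 1.42.0 was an alternative, as were other normalization, no low-count filter, no block, each section left out, other member rules, globins left out and other spots weighted by region. Weighted sums are not raw counts and were rounded before the fit. On simulated counts with 15246 genes the test called 37 of 50 genes raised by 1 on the log2 scale and 50 of 50 raised by 2. It called 31 of 50 lowered by 1, 38 of 49 lowered by 2 and 7 of 15047 left as they were. The simulation gave all genes the same dispersion and the same fold in every section. It therefore does not cover genes whose ratio varied more between the sections.

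Regions came from Leiden clustering per section (scanpy 1.11.5, igraph 0.11.9, resolution 1, 2000 variable genes without the scoring genes, 30 principal components, 15 neighbours). No doublet caller was run, since a spot is not a cell. Named genes were, in each direction, up to 12 with the largest fold among those called, with the same direction in 3 of 3 sections and at least 100 UMIs; up to 10 with the largest stage ratio not matched by other spots; up to 8 whose enrichment differed most between E13.5 and E11.5; and list members. Globin, mitochondrial, ribosomal protein, sex-linked, unnamed and repeated symbols were left out of these rules. Ccl21a, whose symbol is shared by several entries, and Ahsp were left out of the lists. A few genes that the rules or lists gave are not reported here. Intervals and floors cover counting error only. Other tools were Python 3.11.15, numpy 2.4.6, scipy 1.17.1, pandas 2.3.3 and matplotlib 3.10.9.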

Additional observations from a re-analysis of the deposited data

Results flagged for a closer look

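For 5 lists the median section log2 ratio of endothelium-rich to other spots had opposite signs in 2 sections, each more than 0.5 from 0. Other lists, among them the sclerotome and fibrous mesenchyme lists, had opposite signs without reaching that margin on both sides. With 1 section per stage none of these differences was tested. The lymphatic list stood at 1.51 at E13.5 and -0.61 at E11.5, when Lyve1 had 1.74, 10.3 and 23.2 CPM in endothelium-rich spots over the 3 stages. The mast cell list stood at 1.30 at E11.5 and -0.54 at E13.5, and at E11.5 its defining genes Cpa3, Tpsb2, Cma1, Mcpt4 and Fcer1a were at 0 UMIs in endothelium-rich spots. The liver list stood at 0.85 at E12.5 and -2.30 at E11.5, with Alb, Afp, Fgb and Serpina1a at 0 UMIs in endothelium-rich spots at E12.5. The neural progenitor list stood at 1.47 at E13.5 and -1.37 at E11.5, with Sox1, Pax6, Olig2 and Neurog2 at 0 UMIs in endothelium-rich spots at E13.5. Its summed level did not change sign. At E11.5 and E13.5 it was 573 and 139 CPM in endothelium-rich spots, against 627 and 199 CPM in other spots. The tendon list stood at 1.05 at E11.5 and -1.35 at E13.5, with Kera at 0 UMIs in endothelium-rich spots at E11.5. Summed, the tendon genes were lower at both stages, at 36.9 and 222 CPM in endothelium-rich spots, against 43.5 and 435 CPM in other spots. Where genes are at 0 the ratio rests on the pseudocount of 0.5 UMI.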

How the results depend on the processing

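The counts of 732 genes higher and 731 lower stayed within 1.5 times with the size factors of DESeq2, other member rules and globins left out. DESeq2 called 557 higher and 354 lower (61.1% of its calls higher, against 50.03%), the fit with no low-count filter 826 and 1265 (39.5% higher, with the median of all genes at -0.18), and the weighting by region 472 and 311 (60.3% higher), with 5 skeletal muscle genes lower. Without the replicate block, that is without pairing the 2 sums of a section, edgeR called 34 genes higher and 0 lower, with 915 at an unadjusted p under 0.05; of the lists it called 16 pan-endothelial, 2 arterial, 1 basement membrane and 0 mural genes higher, and 0 heart and 0 skeletal muscle genes lower. Leaving out each section gave 398 to 1182 genes higher and 323 to 1149 lower, fewest without E12.5 and most without E13.5. It gave 28 to 29 pan-endothelial, 11 to 13 arterial, 7 to 11 basement membrane and 7 to 9 mural genes higher, and 7 to 8 heart and 6 to 8 skeletal muscle genes lower. With the top 3% of spots 505 genes were at least 2 times as high at E13.5 and 139 at most 0.5 times.

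Of the named and listed genes 9 changed direction where a call was involved. Leaving out sections moved Reln over -0.71 to 0.44, Itm2a over -0.37 to 0.29, Afp over -2.87 to 0.21, Apoa2 over -1.07 to 1.12 and Ttr over -1.30 to 0.21. The weighting by region put Acta2 at 0.38, Sftpc at -1.05, Nes at -0.30 and Sox10 at -0.68. The cause was not tested. Over all alternatives the fold changes of these genes kept direction and side of the threshold in 3633 cases, lost a call in 423 and gained one in 128. Apart from the calls named with their results, Bmx, Lsr, Vegfb, Hbb-y, Slc4a1, Lyz2, Fbn1 and Sned1 lost theirs with the top 3% of spots, Sned1, Nrarp, Vwa1, Bgn, Vegfb, Tubb3 and Jag2 with the top 10%, and Sned1, Eln, Nrarp, Bmx, Hbb-y, Hba-a1, Hba-a2 and Jag2 with spots of at least 5000 UMIs. Of the stage ratios 508 stayed within their interval and 22 moved outside it, none across 1 for a gene past the fold.

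There is 1 section per stage, and the p-values measure the scatter of a ratio between sections that differ in stage. The score rests on 19 to 25 UMIs in the median endothelium-rich spot, and 0, 1 and 9 of these spots had under 5000 UMIs. A gene with 1 UMI in the endothelium-rich sum has 0.348 to 0.646 CPM, so low genes such as Foxq1, Slco1c1 and Esm1 are limited by depth.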

Other observations

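Genes of the endocardium and valves, the inner lining of the heart, were mixed in endothelium-rich spots: 3 of 8 rose and 1 fell. Plxnd1, a semaphorin receptor of all endothelium, had 198, 209.8 and 244 CPM in endothelium-rich spots, against 61.7, 61.4 and 74.3 CPM in other spots (log2 fold change 1.71, adjusted p = 4.27e-07). Npr3, a natriuretic peptide receptor, and Tmem100, a target of BMP signals in endothelium, rose by 0.99 and 1.32 on the log2 scale (adjusted p = 0.00208 and 0.01). Against other spots weighted by region Npr3 stood at 0.20 and did not pass (adjusted p = 0.622), while Tmem100 stood at 1.04 (adjusted p = 3.24e-04). Nfatc1, the defining endocardial factor, did not pass (log2 fold change -0.23, adjusted p = 0.568), and Gata4, a factor of heart and gut tissue, fell (log2 fold change -1.86, adjusted p = 0.00853). The factor Foxc2, of sclerotome and of vessels, was the 1 of 5 sclerotome genes that rose (log2 fold change 0.79, adjusted p = 0.00323), and it stood at 0.03 against other spots weighted by region (adjusted p = 0.954).

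Between the stages the Notch pair Notch3 and Jag1 had ratios of E13.5 to E11.5 of 2.13 (95% interval 1.75 to 2.6) and 2.12 (95% interval 1.56 to 2.89) in endothelium-rich spots, against 1.1 (1.04 to 1.17) and 1.09 (0.977 to 1.21) in other spots. Lyve1, with 5 UMIs at E11.5 and 36 at E13.5, under the minimum of 50, had 13.3 (95% interval 5.21 to 43.5) in endothelium-rich spots and 9.72 (7.58 to 12.6) in other spots. The matrix protein Reln had 2.75 (95% interval 1.8 to 4.24) in endothelium-rich spots and 0.609 (0.537 to 0.691) in other spots. Of 9 macrophage genes with enough UMIs 8 were at least 2 times as high at E13.5 in endothelium-rich spots, and all 8 erythroid genes other than globins were at most 0.5 times as high. Their median log2 ratios were 1.61 and -3.76 in endothelium-rich spots and 1.90 and -3.45 in other spots.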
